A study of Mus musculus with 7 samples.

Results

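Mitosis is the stage at which a cell condenses its copied chromosomes, attaches them to a spindle of microtubules, pulls the sister chromatids apart and divides. Entry is driven by the kinase CDK1 bound to cyclin B, and the spindle checkpoint holds the cell before anaphase until every kinetochore, the protein platform on each centromere, is attached. Attachment lets CDC20 switch on the anaphase promoting complex, which marks cyclin B and securin for destruction. Genes of this programme are transcribed late in the cell cycle under the MuvB complex with B-MYB and FOXM1, and mouse embryonic stem cells are known for fast cycles with a short first gap phase.

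The 50 genes described here were a list of mitosis and spindle checkpoint genes, chosen with earlier results of these data known. Each was found by symbol among the 55484 genes of the count table. Their RNA was measured in 4 libraries of mouse embryonic fibroblasts (MEFs, fibroblasts grown from mouse embryos) and 3 libraries of mouse embryonic stem cells (mESCs, pluripotent cells of the early embryo), all of a C57/Bl6 background. No treatment, line or clone is given. The labels do not tie the libraries to cultures or embryos, whereas the study's legends call its transcriptional data biological replicates, in equal number for both cell types, and do not name the MEF libraries used there. The p-values, from all 7 libraries, set the difference between cell types against the spread among libraries of the same cell type. The study sorted its cells for chromatin libraries on THY1, SSEA1 and EPCAM, and whether the RNA came from sorted cells is not given in the sources used here. The libraries are called MEF-A to MEF-D and mESC-A to mESC-C, letters that only name them.

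The libraries held 6528643 to 11441278 counts, and 3 counts, taken as the floor, corresponded to 0.288 to 0.477 CPM, counts scaled to a common library size with edgeR's TMM factors (counting error only). All 10 pluripotency markers were higher in mESCs and all 10 fibroblast markers were lower. Summed pluripotency markers read 42.9 to 47.3 CPM in MEFs and 3372 to 3640 CPM in mESCs, and summed fibroblast markers read 25581 to 41751 CPM and 361 to 411 CPM. The extraction text of the labels speaks of blood stem cells of young and aged mice, and the column names carry an unexplained letter that goes with the cell type, O for every MEF and Y for every mESC library, so what it stands for and the cell type cannot be told apart. The 10 blood markers summed to 44.7 to 55.1 CPM in MEFs and 37.0 to 39.9 CPM in mESCs. Of these 10, Kit was higher in mESCs, 3 were lower, 3 did not pass the test, and Ptprc, Cd48 and Vav1 had too few counts to be tested.

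Promoters of mitotic genes are known for 2 short elements, the CHR (cell cycle genes homology region, TTTGAA) bound by MuvB and the CCAAT box bound by NF-Y. RefSeq promoter windows on GRCm38.p6, from 250 bases before to 50 bases after a transcription start, were found for 39 of the 50 genes (42 windows). Ccna2, Cdc25c, Wee1, Pkmyt1, Foxm1, Aurkb, Spc24, Incenp, Kif20a, Tpx2 and Smc4 had no window. The 9 stretches of 30 bases that follow show the CHR of the genes with the largest and the smallest fold change among those with a match, each at its match nearest to the start. They are given 5′ to 3′ on the strand of the gene, and capitals mark TTTGAA or its reverse complement TTCAAA.
Ect2 (chr3:27153822-27153851, minus strand): cgactggattttTTTGAAtcggaggcggca
Espl1 (chr15:102296254-102296283, plus strand): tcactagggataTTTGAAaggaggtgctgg
Cenpf (chr1:189688067-189688096, minus strand): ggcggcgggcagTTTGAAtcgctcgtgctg
Bub1b (chr2:118598231-118598260, plus strand): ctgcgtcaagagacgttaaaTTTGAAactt
Aurka (chr2:172370521-172370550, minus strand): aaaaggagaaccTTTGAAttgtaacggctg
Cdk1 (chr10:69352910-69352939, minus strand): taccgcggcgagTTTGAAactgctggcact
Ndc80 (chr17:71526811-71526840, minus strand): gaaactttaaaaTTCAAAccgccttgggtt
Bub3 (chr7:131560315-131560344, plus strand): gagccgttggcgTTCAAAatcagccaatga
Kif4 (chrX:100626072-100626101, plus strand): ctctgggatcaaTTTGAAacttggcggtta
The match began before the start in Espl1, Cdk1 and Bub3, at -27, -15 and -43 bases. It began after the start in Ect2 (base 16), Cenpf (3), Bub1b (41), Aurka (33), Ndc80 (30) and Kif4 (20). Ect2, Espl1, Cenpf, Bub1b and Aurka had more RNA in mESCs, whereas Cdk1, Ndc80, Bub3 and Kif4 did not pass the test, so the element stood in promoters of both kinds.

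A CCAAT box, shown next in capitals for 2 cyclin and chromosome genes that were higher in mESCs, lay 67 bases before the start in Ccnb1 and 78 bases before it in Top2a.
Ccnb1 (chr13:100786536-100786565, minus strand): gccacgaactggCCAATgaggagcgagcgg
Top2a (chr11:99024250-99024279, minus strand): ctgcaaacagagCCAATgagagcgagtcgg
TTTGAA on either strand was present in 28 of the 39 genes (71.8%), against 20.2% of all genes with a window and 14.7% of the genes tested for expression. Of 27 DNA replication genes, also a cell cycle list, 4 had it (14.8%). The variant TTCGAA, which reads the same on both strands and is never also a TTTGAA match, was present in 4 of the 39 (10.3%, Cdc25b, Bub1, Bub1b and Top2a) and in 1.8% of all genes. CCAAT or its complement ATTGG was present in 29 (74.4%) against 41.1% of all genes, 43.5% of the genes tested and 66.7% of the replication genes. The CHR matches were densest just after the start, where 40.5% of the 42 windows had one in the first 50 bases against 2.25% of all windows. CCAAT matches were densest before it, with 42.9% of windows between -100 and -50 and 45.2% between -50 and 0, against 12.5% and 9.03%. Of the 25 genes with a window that were higher in mESCs, 21 had a CHR or its variant and 21 had a CCAAT box. Of the 14 that did not pass the test, 9 and 8 had them. These are letter matches, with no measure of binding.

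**Figure D1:**
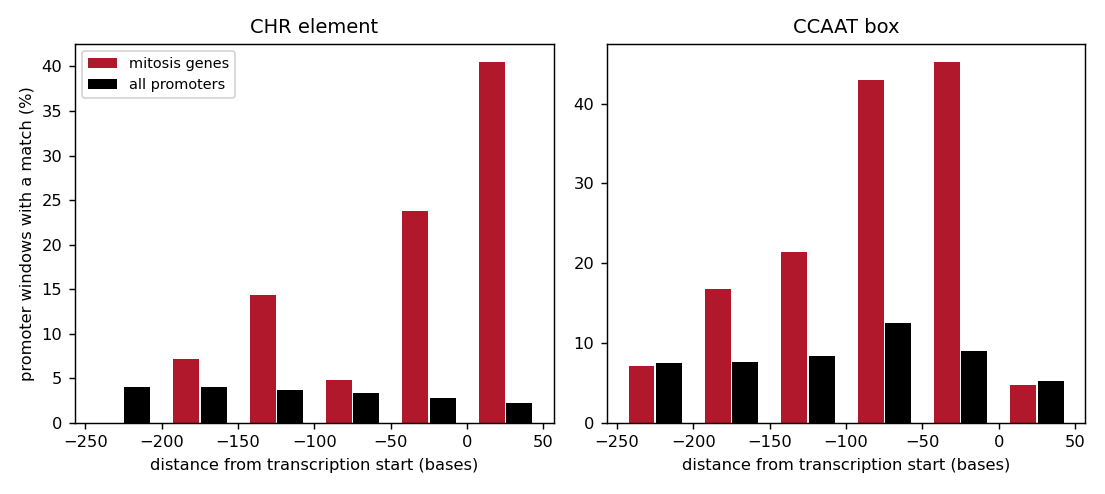
Share of promoter windows with a match to the CHR (TTTGAA, left) or the CCAAT box (right) on either strand, in steps of 50 bases by distance from the transcription start, for 42 windows of mitosis genes (red) and 32851 windows of all genes (black). The red bars peak just after the start for the CHR (40.5%) and in the 2 steps before it for the CCAAT box (42.9% and 45.2%).

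Mitosis genes were mostly higher in mESCs, and none was lower. Of 49 genes with enough counts to be tested, 30 (61.2%) were higher in mESCs by edgeR's quasi-likelihood test at a Benjamini-Hochberg adjusted p of 0.05 over 16580 genes, 0 were lower and 19 did not pass. Over all genes tested, 22.8% were higher and 25.0% were lower. At an unadjusted p of 0.05 the number lower was also 0, and DESeq2 gave 30 higher and 0 lower (19.3% and 19.8% of all genes it tested). For 32 of the 49 every mESC library lay above every MEF library and for 0 below, against 25.9% and 26.2% of all genes tested. The median log2 fold change was 0.78 (quartiles 0.27 and 1.25), beside 0.04 for all genes tested. It ran from -0.41 for Nuf2 to 2.18 for Pttg1 and was over 1 for 20 genes. Together these genes took 0.432% to 0.538% of all counts, before TMM scaling, in MEF libraries and 0.914% to 1.01% in mESC libraries. On the TMM scale they summed to 4756 to 5902 CPM in MEFs and 8120 to 8899 CPM in mESCs. In bulk RNA, more cells in mitosis and more RNA of these genes per cell cannot be told apart.

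The scaling moved the whole scale. Without TMM the median of all genes tested rose from 0.04 to 0.32 and that of the mitosis genes from 0.78 to 1.06, with 40 genes higher and 0 lower, while 31.2% of all genes were then higher and 20.2% lower. The 10 genes gained on that scale were Cdk1, Plk1, Bub3, Cenpe, Tpx2, Anln, Smc2, Smc4, Ncaph and Mki67, with log2 fold changes of 0.37 to 0.87. A test against a fold change of 2 kept 7 genes, Ccnb1, Wee1, Cenpf, Spc24, Pttg1, Espl1 and Ect2 (10.3% of all genes were higher and 13.7% lower by that test). Fold changes below are on the TMM scale. The adjusted p values below are from the same edgeR fit.

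**Figure D2:**
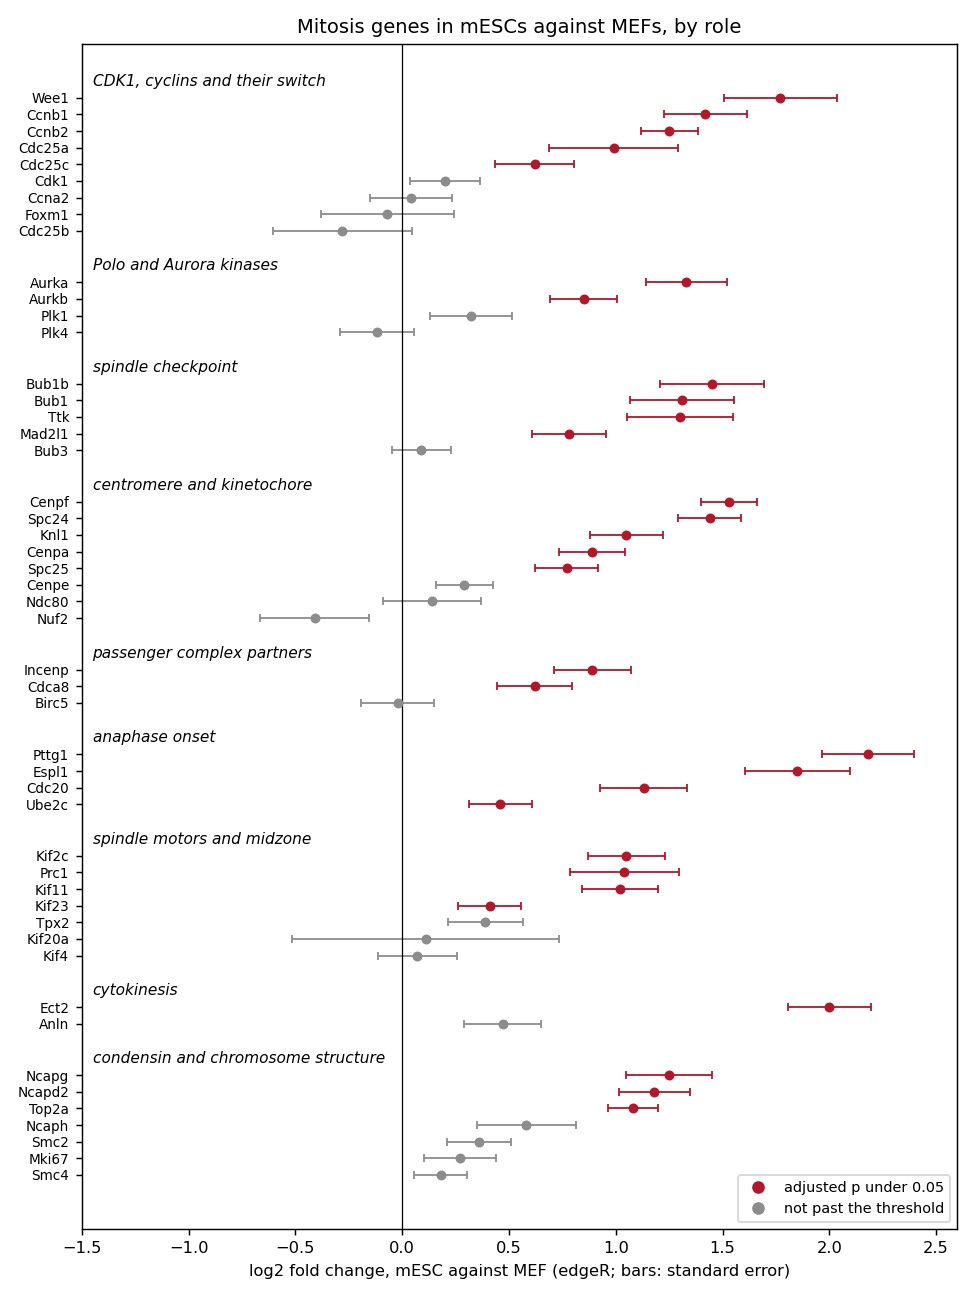
Fitted log2 fold change of the 49 tested mitosis genes, mESC against MEF, in 9 groups by role, with bars for the standard error (4 MEF and 3 mESC libraries). Red points passed an adjusted p of 0.05 (30 genes, all right of 0), and grey points did not (19 genes, from -0.41 to 0.58).

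**Figure D3:**
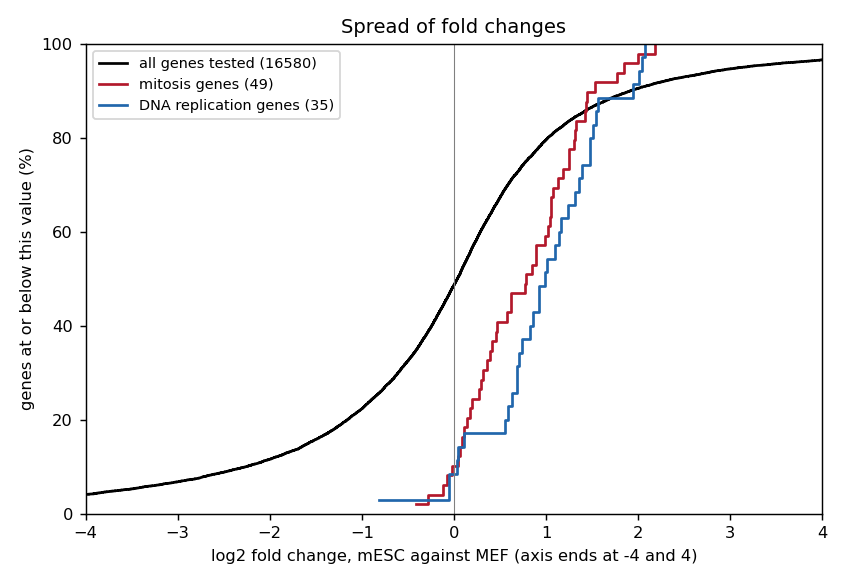
Cumulative share of genes at or below each log2 fold change, mESC against MEF, for all 16580 genes tested (black), 49 mitosis genes (red) and 35 DNA replication genes (blue). The red curve starts at -0.41 and ends at 2.18, inside the range of all genes, and its median of 0.78 lies between 0.04 (all) and 0.99 (replication).

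The genes of the kinase CDK1 and cyclin A2 did not pass the test on the TMM scale. Those of the B cyclins and the inhibitory kinase WEE1 were higher in mESCs, a contrast that was not tested. In the group of CDK1, its cyclins and their switch, 5 of 9 tested genes were higher, with a median log2 fold change of 0.62. Wee1, whose product phosphorylates and restrains CDK1, read 13.3, 9.91, 6.47 and 8.27 CPM in MEF-A to MEF-D and 29.2, 31.9 and 36.5 CPM in mESC-A to mESC-C. Every mESC library lay above every MEF library, 3.41-fold by the fit (log2 1.77 ± 0.264 SE, adjusted p = 0.000275). Ccnb1, the cyclin B1 gene, read 125, 136, 80.3 and 93.5 CPM in MEFs and 299, 255 and 318 CPM in mESCs. The groups lay apart, 2.67-fold (log2 1.42 ± 0.194 SE, adjusted p = 0.000154). An annotated pseudogene, Ccnb1-ps, shares 23.4% of the 50-base stretches of its transcripts, so reads from such stretches cannot be assigned to either, and the effect on its count was not measured. Ccnb2, for cyclin B2, was 2.38-fold higher.

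Cdk1 itself read 148, 168, 113 and 121 CPM in MEFs and 167, 151 and 157 CPM in mESCs. The mESC libraries lay inside the MEF range (log2 0.20, 95% interval -0.16 to 0.57, adjusted p = 0.342). Ccna2, for cyclin A2, read 128, 110, 82.7 and 83.5 CPM in MEFs and 118, 92.9 and 100 CPM in mESCs. Its mESC values also fell within the MEF range (log2 0.04, 95% interval -0.39 to 0.46). Foxm1, for the transcription factor that switches on late cell cycle genes, read 13.2, 26.4, 13.1 and 12.9 CPM in MEFs and 12.2, 16.9 and 17.7 CPM in mESCs. MEF-B stood apart from the other 3 MEF libraries, and the groups overlapped (log2 -0.07, 95% interval -0.76 to 0.62).

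Among the CDC25 phosphatases, which undo the mark left by WEE1, Cdc25a and Cdc25c were higher in mESCs and Cdc25b did not pass the test. Cdc25a read 57.1, 56.9, 24.9 and 25.9 CPM in MEFs and 75.7, 85.6 and 84.8 CPM in mESCs. It was higher in mESCs with a wide MEF spread (1.99-fold, log2 0.99 ± 0.301 SE, adjusted p = 0.0192), and the call was lost without mESC-B (adjusted p = 0.0522) or mESC-C (0.0521). Cdc25b read 17.1, 24.4, 17.3 and 12.6 CPM in MEFs and 10.1, 11.9 and 22.1 CPM in mESCs. Its groups overlapped (log2 -0.28, 95% interval -1.0 to 0.45). Cdc25c was 1.53-fold higher (adjusted p = 0.0179), lost without mESC-A (0.0858), and its exons overlap those of Gm3550 on the other strand, which held 13524 counts against 1875 for Cdc25c. Pkmyt1, for the membrane-bound kinase MYT1 that also inhibits CDK1, was not tested, with 14, 2, 6 and 2 counts in MEFs and 4, 13 and 8 in mESCs, values near the floor.

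Ratios of related genes within a library do not depend on scaling, and 10 pairs were compared by an exact permutation test (two-sided, 35 splits, smallest p 0.0286). The 2 cell types were separate in 4 pairs, and none passed after adjustment over the 10, where the lowest adjusted p was 0.114. The log2 ratio of Cdc25a to Cdc25b was 1.73, 1.21, 0.52 and 1.03 in MEFs and 2.88, 2.82 and 1.93 in mESCs, so mESCs held 2.67-fold more Cdc25a relative to Cdc25b (exact p = 0.0286). That of Wee1 to Pkmyt1 was 3.10, 4.22, 2.81 and 3.93 in MEFs and 5.45, 4.23 and 4.95 in mESCs, with MEF-B and mESC-B almost equal (exact p = 0.0571). This separation rests on few Pkmyt1 counts, 2 each in MEF-B and MEF-D. It was lost when 0.5 counts were added to each gene as an alternative. Ccnb1 to Ccnb2 and Cdc25a to Cdc25c overlapped between the cell types.

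Both Aurora kinases were higher in mESCs, whereas neither Polo-like kinase passed the test. Aurka, which builds the spindle poles, read 33.2, 39.0, 25.9 and 25.6 CPM in MEFs and 86.4, 74.1 and 73.0 CPM in mESCs. The groups lay far apart, 2.52-fold (log2 1.33 ± 0.189 SE, adjusted p = 0.000197). Aurkb, the enzyme of the chromosomal passenger complex that corrects faulty attachments, read 37.6, 39.8, 36.8 and 31.2 CPM in MEFs and 59.3, 68.1 and 69.0 CPM in mESCs. It was 1.80-fold higher (log2 0.85 ± 0.158 SE, adjusted p = 0.00121). The log2 ratio of Aurka to Aurkb was -0.18, -0.03, -0.50 and -0.28 in MEFs and 0.54, 0.12 and 0.08 in mESCs, with no overlap, at an exact p of 0.0571 that did not pass after adjustment (0.114).

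Plk1, the mitotic Polo kinase, read 68.7, 72.7, 52.4 and 46.4 CPM in MEFs and 83.8, 66.1 and 74.7 CPM in mESCs. One mESC library fell inside the MEF range (log2 0.32, 95% interval -0.11 to 0.74), and 10.4% of its 50-base stretches are shared, mostly with a pseudogene. Plk4, the trigger of centriole duplication, read 82.6, 77.3, 66.1 and 58.7 CPM in MEFs and 59.4, 74.6 and 62.5 CPM in mESCs. The mESC values lay inside the MEF range (log2 -0.12, 95% interval -0.50 to 0.26).

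Of the 5 spindle checkpoint genes, 4 were higher in mESCs, with a group median log2 fold change of 1.30, and Bub3 did not differ beyond its spread. Bub1b encodes BUBR1, part of the complex that blocks CDC20, and read 20.7, 15.5, 29.2 and 33.1 CPM in MEFs and 69.8, 63.5 and 68.2 CPM in mESCs. All mESC libraries lay above all MEF libraries, 2.73-fold (log2 1.45 ± 0.243 SE, adjusted p = 0.000614). Bub1, for the kinetochore kinase that recruits the other checkpoint proteins, read 32.7, 30.6, 18.7 and 17.2 CPM in MEFs and 58.1, 62.4 and 64.9 CPM in mESCs. The difference was 2.49-fold (log2 1.31 ± 0.242 SE, adjusted p = 0.00112). Within MEFs Bub1 was highest in MEF-A and MEF-B and Bub1b in MEF-C and MEF-D.

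Ttk, for the kinase MPS1 that starts the checkpoint signal, was 2.46-fold higher (adjusted p = 0.00134), and Mad2l1, for the MAD2 protein that captures CDC20, was 1.72-fold higher (adjusted p = 0.00364). Bub3, whose product docks BUB1 and BUBR1 on the kinetochore, read 238, 226, 186 and 204 CPM in MEFs and 244, 217 and 221 CPM in mESCs. The groups overlapped (log2 0.09, 95% interval -0.22 to 0.39, adjusted p = 0.633). The log2 ratio of Bub3 to Bub1 was accordingly 2.86, 2.87, 3.30 and 3.55 in MEFs and 2.06, 1.79 and 1.76 in mESCs. It was lower by 1.27 on average, with no overlap, at the smallest exact p of 0.0286 (0.114 adjusted over the 10 pairs).

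**Figure D4:**
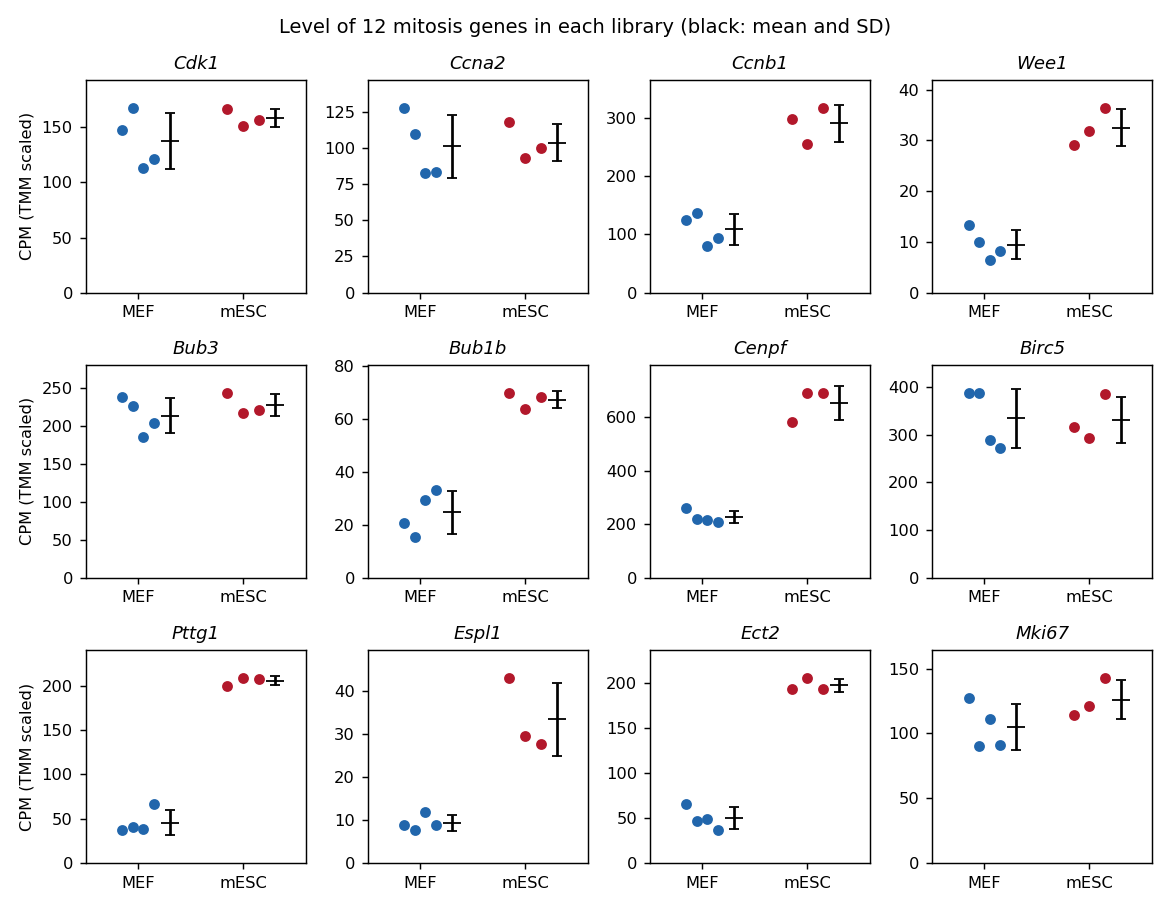
Level of 12 mitosis genes, chosen after their values were seen, in CPM on the TMM scale, one panel per gene, with a point per library (4 MEF in blue, 3 mESC in red) and the mean and SD in black. Wee1, Ccnb1, Bub1b, Cenpf, Pttg1, Espl1 and Ect2 separate the cell types with no overlap, whereas Cdk1, Ccna2, Bub3, Birc5 and Mki67 overlap.

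At the centromere and kinetochore 5 of 8 genes were higher in mESCs, with a median log2 fold change of 0.83. Cenpf, for a large kinetochore protein that peaks late in the cycle, read 260, 218, 216 and 210 CPM in MEFs and 581, 689 and 692 CPM in mESCs. The groups lay far apart, 2.89-fold (log2 1.53 ± 0.131 SE, adjusted p = 5.13e-06), although MEF-A stood above the other MEF libraries. The 4 subunits of the NDC80 complex, which grips the microtubule, split in pairs. Spc24 was 2.71-fold higher (adjusted p = 1.84e-05) and Spc25 1.71-fold higher (adjusted p = 0.00127). Ndc80 read 43.7, 36.7, 27.9 and 39.1 CPM in MEFs and 33.8, 34.1 and 53.9 CPM in mESCs. Nuf2 read 48.0, 83.1, 42.5 and 40.1 CPM in MEFs and 43.5, 38.5 and 38.5 CPM in mESCs. Both overlapped, with 95% intervals of -0.37 to 0.64 for Ndc80 and -0.97 to 0.15 for Nuf2 on the log2 scale, and Nuf2 had the lowest fold change of all 49 (log2 -0.41, adjusted p = 0.213). The difference between the pairs was not tested.

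Knl1, the scaffold that carries the checkpoint proteins, was 2.07-fold higher (adjusted p = 0.000489), and Cenpa, the histone variant that marks the centromere, 1.85-fold higher (adjusted p = 0.000795). Cenpe, a kinetochore motor, read 199, 171, 187 and 165 CPM in MEFs and 220, 206 and 237 CPM in mESCs. The libraries did not overlap, yet the difference of 1.22-fold did not pass the test (adjusted p = 0.0955). Among the partners of AURKB in the passenger complex, Incenp, its scaffold, read 68.3, 78.4, 55.8 and 63.5 CPM in MEFs and 148, 100 and 121 CPM in mESCs. It was 1.85-fold higher (adjusted p = 0.002). Cdca8, for borealin, was 1.53-fold higher (adjusted p = 0.0134, but 0.0539 without mESC-C). Birc5, for survivin, read 387, 388, 289 and 273 CPM in MEFs and 315, 292 and 385 CPM in mESCs. The mESC values lay inside the MEF range (log2 -0.02, 95% interval -0.39 to 0.36).

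All 4 genes of anaphase onset were higher in mESCs, with a median log2 fold change of 1.49. Securin and separase had the first and the third largest fold changes of the 49 genes. Pttg1, for securin, the protein that holds separase inactive until anaphase, read 36.6, 40.1, 38.1 and 66.6 CPM in MEFs and 200, 209 and 208 CPM in mESCs. The mESC libraries were close to each other and far above MEF-D, the highest MEF library, which stood apart from the other 3 (4.54-fold, log2 2.18 ± 0.215 SE, adjusted p = 1.45e-05). Espl1, for separase, the protease that cuts cohesin, read 8.73, 7.77, 11.9 and 8.75 CPM in MEFs and 43.1, 29.5 and 27.6 CPM in mESCs. It was 3.59-fold higher (log2 1.85 ± 0.247 SE, adjusted p = 0.00013).

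Cdc20, the activator of the anaphase promoting complex, was 2.18-fold higher (adjusted p = 0.00105). Its exons overlap those of Elovl1 on the other strand, which held 2902 counts against 2269 for Cdc20. Ube2c, the ubiquitin-conjugating enzyme of that complex, read 134, 130, 116 and 118 CPM in MEFs and 145, 177 and 194 CPM in mESCs. This was the smallest difference of the group at 1.38-fold (log2 0.46 ± 0.148 SE, adjusted p = 0.024). The call was lost without MEF-C (adjusted p = 0.0605), MEF-D (0.0514), mESC-B (0.072) or mESC-C (0.114).

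Among spindle motors and midzone proteins 4 of 7 genes were higher, with a median log2 fold change of 0.41. Kif2c, for a kinesin that dismantles faulty microtubule attachments, read 27.8, 31.7, 29.6 and 21 CPM in MEFs and 59.3, 53.3 and 58.4 CPM in mESCs. It was 2.07-fold higher (log2 1.05 ± 0.182 SE, adjusted p = 0.000752). Kif11, for the motor that pushes the spindle poles apart, was 2.03-fold higher (adjusted p = 0.000857). Prc1, which bundles midzone microtubules, read 159, 87.7, 95.9 and 88.6 CPM in MEFs and 184, 181 and 302 CPM in mESCs. It was 2.06-fold higher (adjusted p = 0.00617), with MEF-A and mESC-C each above the rest of their cell type. Kif23, for a motor of the midzone, was 1.33-fold higher (adjusted p = 0.0416). That call was lost in all refits without 1 library except the one without mESC-A, with adjusted p of 0.0506 to 0.16.

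Kif4, a chromosome-bound kinesin, read 57.2, 64.5, 55.1 and 57.7 CPM in MEFs and 49.3, 56.4 and 78.7 CPM in mESCs. The mESC values lay on both sides of the MEF values (log2 0.07, 95% interval -0.34 to 0.48), and Pdzd11 on the other strand, with overlapping exons, held 2198 counts against 3460. Tpx2, which activates AURKA on the spindle, read 168, 204, 151 and 128 CPM in MEFs and 187, 233 and 219 CPM in mESCs. Only mESC-A fell within the MEF range, and the difference of 1.31-fold did not pass the test (adjusted p = 0.0905), but passed without MEF-B (0.0297). Kif20a, a motor of late division, had few counts, with 5.28, 0.61, 2.28 and 1.91 CPM in MEFs and 1.95, 3.29 and 3.07 CPM in mESCs. Its 95% interval of -1.28 to 1.49 on the log2 scale is wide, and Cdc23 overlaps it on the other strand with 555 counts against 163.

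Of the 2 cytokinesis genes, Ect2, for the exchange factor that sets the cleavage furrow, had the second largest fold change. It read 66.0, 47.0, 48.4 and 36.6 CPM in MEFs and 194, 206 and 193 CPM in mESCs. The lowest mESC library was well above the highest MEF library (3.99-fold, log2 2.0 ± 0.193 SE, adjusted p = 1.25e-05). Anln, for the furrow scaffold anillin, read 53.1, 50.9, 37.0 and 44.4 CPM in MEFs and 63.4, 55.6 and 73.1 CPM in mESCs. The libraries did not overlap, but the difference of 1.38-fold missed the threshold (adjusted p = 0.0535) and passed it without MEF-A (0.0458).

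In condensin and chromosome structure 3 of 7 genes were higher, with a median log2 fold change of 0.58, and 7 of 7 were higher without TMM scaling. The shared core of the condensins, SMC2 and SMC4, did not pass on the TMM scale. Top2a, for the topoisomerase that untangles sister chromatids, read 560, 506, 521 and 459 CPM in MEFs and 1005, 1171 and 1076 CPM in mESCs. It was 2.12-fold higher (log2 1.08 ± 0.116 SE, adjusted p = 2.64e-05). Of the condensin I subunits, Ncapd2 was 2.27-fold higher (adjusted p = 0.000177). Ncapg, another, read 31.6, 22.7, 27.4 and 18.1 CPM in MEFs and 58.9, 61.4 and 59.0 CPM in mESCs. It was 2.38-fold higher (log2 1.25 ± 0.202 SE, adjusted p = 0.000471), and Lcorl, overlapping on the other strand, held 2110 counts against 2404 for Ncapg. Ncaph, the third, read 45.7, 71.8, 36.3 and 43.6 CPM in MEFs and 86.5, 64.6 and 70.4 CPM in mESCs. MEF-B lay among the mESC values, and the difference of 1.5-fold passed only in the refit without MEF-B (adjusted p = 0.0602 with it and 0.00542 without it) among the refits that left out 1 library.

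Smc2, for the ATPase shared by both condensins, read 283, 250, 221 and 201 CPM in MEFs and 282, 295 and 340 CPM in mESCs. The groups nearly parted (log2 0.36, 95% interval 0.02 to 0.69), without passing (adjusted p = 0.0734), and Smc2 passed without MEF-A (0.0364). Smc4, its partner, read 1093, 868, 861 and 900 CPM in MEFs and 976, 1028 and 1156 CPM in mESCs. MEF-A lay above the other MEF libraries and inside the mESC range (log2 0.18, 95% interval -0.10 to 0.46). The log2 ratio of Smc2 to Smc4 ran from -2.16 to -1.80 in MEFs and from -1.80 to -1.76 in mESCs (exact p = 0.0857). Mki67, for the chromosome coat protein Ki-67 used to mark dividing cells, read 127, 90.1, 111 and 90.8 CPM in MEFs and 114, 121 and 143 CPM in mESCs. Its groups overlapped (log2 0.27, 95% interval -0.11 to 0.64, adjusted p = 0.226).

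The 50 genes also varied among MEF libraries in a shared way. Measured from the mean of the cell type, the median gene lay at 0.15, 0.11, -0.14 and -0.15 on the log2CPM scale in MEF-A to MEF-D and at -0.06, -0.05 and 0.05 in mESC-A to mESC-C. The median over all genes tested was between -0.00 and 0.02 in every library. MEF-A was the highest MEF library for 24 of the genes, MEF-B for 16, MEF-C for 2 and MEF-D for 8, whereas each was the highest for 24.3% to 26.4% of all genes tested. The 35 replication genes lay at 0.20, 0.14, -0.17 and -0.16 in the MEF libraries, with the same signs. Other values moved with this: fibroblast markers summed to 25581, 29750, 41751 and 33367 CPM in MEF-A to MEF-D, and the Y-linked genes Ddx3y, Eif2s3y and Kdm5d to 2.11, 0.61, 90.6 and 88.4 CPM. In mESCs the Y-linked sum was 1.73, 1.82 and 35.9 CPM. The part of these in the pattern was not tested. The spread of a gene between libraries was still modest, with a median SD of 0.27 on the log2CPM scale in MEFs and 0.16 in mESCs (0.38 and 0.31 for all genes tested).

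**Figure D5:**
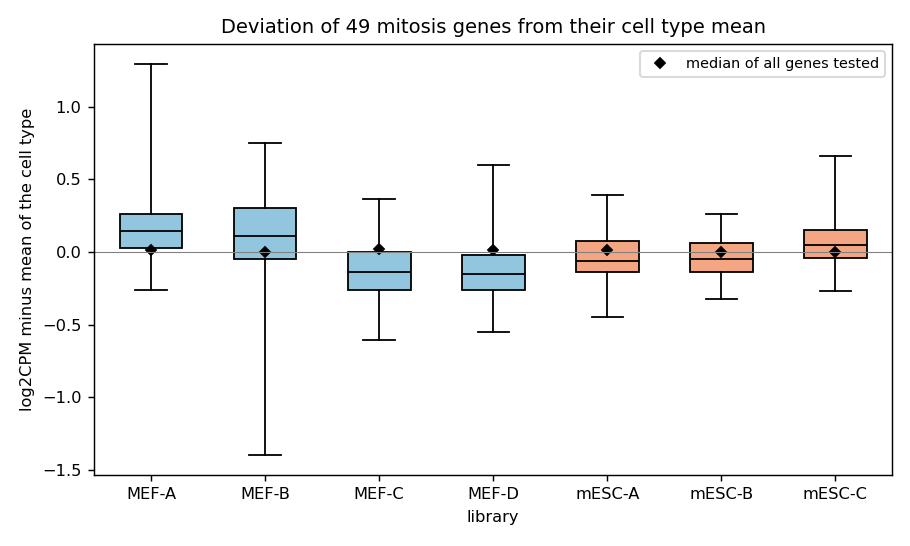
Deviation of the 49 tested mitosis genes from the mean of their cell type, in log2CPM, for each library (boxes: quartiles and median of the genes; whiskers: full range; blue MEF, red mESC), with the median of all genes tested as diamonds. The boxes of MEF-A and MEF-B have medians of 0.15 and 0.11 and those of MEF-C and MEF-D of -0.14 and -0.15, while the diamonds stay at -0.00 to 0.02.

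The wider machinery outside the list of 50 was read from 9 lists, also chosen with earlier results of these data known. They held 121 other mitosis genes, all tested. Of these, 48 (39.7%) were higher in mESCs and 16 (13.2%) lower, with a median log2 fold change of 0.40, beside 22.8% higher and 25.0% lower over all genes. Spindle and cleavage proteins had 12 of 17 higher and 0 lower, with a median of 0.92. Their extremes were Kif18a, a motor that aligns chromosomes, at log2 1.73 (adjusted p = 0.000161) and Numa1, a spindle pole protein, at 0.12 (adjusted p = 0.714). Sister chromatid cohesion had 8 of 14 higher and 1 lower, with a median of 0.88. Esco2, the acetyltransferase that locks cohesin onto copied DNA, read 68.8, 52.9, 54.8 and 45.5 CPM in MEFs and 427, 556 and 439 CPM in mESCs. It was 8.53-fold higher (log2 3.09 ± 0.176 SE, adjusted p = 2.95e-07), while Stag2, a cohesin subunit and the 1 gene lower, had log2 -0.64 (adjusted p = 0.0248). That call was lost without MEF-C (adjusted p = 0.0525), MEF-D (0.0574), mESC-A (0.0875) or mESC-B (0.0913) and without TMM scaling (0.189).

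Genes of the inner kinetochore and of CENP-A loading had 10 of 17 higher and 0 lower (6 higher without mESC-C), with a median of 0.67. Cenpm, a subunit of the inner kinetochore, read 21.3, 22.6, 33.6 and 22.1 CPM in MEFs and 123, 105 and 103 CPM in mESCs. It was 4.44-fold higher (log2 2.15 ± 0.195 SE, adjusted p = 8.04e-06), and Mis18a lay lowest at -0.00. The outer kinetochore list had 4 of 15 higher and 2 lower, with a median of 0.10, but 2 higher without mESC-C and 1 lower in the refits without MEF-A, MEF-C or any of the mESC libraries. Without TMM scaling 6 were higher and 1 lower. Zwilch was higher (log2 1.76, adjusted p = 3.29e-05) and Zwint, whose product binds KNL1, was lower (log2 -0.95, adjusted p = 0.00151), at 132, 153, 110 and 105 CPM in MEFs and 68.7, 53.7 and 71.0 CPM in mESCs. Centrosome genes had 6 of 18 higher and 2 lower (0 or 1 lower when 1 library was left out), from Cep152 (log2 1.72, adjusted p = 0.00643) to Sass6 (log2 -0.73, adjusted p = 0.0311). The Sass6 call was lost without MEF-A, MEF-B, MEF-C, mESC-B or mESC-C (adjusted p of 0.0578 to 0.0963) and without TMM scaling (0.141), where 9 centrosome genes were higher and 0 lower. Condensin II had 1 of 3 higher, Ncapd3 (log2 1.74, adjusted p = 0.000103), with Ncapg2 at 0.02.

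Core subunits of the anaphase promoting complex were more often lower than higher in mESCs. Of 17 genes of the complex and its regulators, 8 (47.1%) were lower in mESCs, 2 were higher and 7 did not pass, with a median log2 fold change of -0.06. Cdc16, a core subunit, read 122, 105, 136 and 134 CPM in MEFs and 35.3, 33.6 and 40.0 CPM in mESCs. The groups lay far apart, at 0.293 times the MEF level (log2 -1.77 ± 0.164 SE, adjusted p = 9.05e-06). Fbxo5, for the inhibitor EMI1, read 48.3, 31.9, 29.2 and 28.0 CPM in MEFs and 86.5, 110 and 92 CPM in mESCs. It was 2.79-fold higher (log2 1.48 ± 0.212 SE, adjusted p = 0.000207). When 1 library was left out, 7 or 8 of the 17 were lower and 1 or 2 higher, with 1 higher without MEF-B, MEF-C, mESC-A or mESC-B. Without TMM scaling 6 were lower and 4 higher. The mitotic exit list, of phosphatases and their regulators, had 1 of 10 higher and 2 lower, but 4 higher and 0 lower without TMM scaling. When 1 library was left out, 1 or 2 were higher and 0 to 2 lower, with 2 higher and 0 lower without mESC-A and 1 lower without any other library except MEF-A. Fold changes ran from Ppp2r2d (log2 0.96, adjusted p = 0.00146) to Ppp1ca (log2 -0.73, adjusted p = 0.144).

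Among the regulators that act at the CHR, 4 of 10 genes of MuvB, B-MYB and DREAM were higher in mESCs and 1 was lower, with a median log2 fold change of 0.45. Mybl2, for B-MYB, the activating partner of MuvB, read 2.11, 2.44, 2.16 and 2.07 CPM in MEFs and 55.9, 56.6 and 39.5 CPM in mESCs. This was 23.0-fold (log2 4.52 ± 0.235 SE, adjusted p = 1.66e-07), the largest of the 121. Rbl2, for p130, the pocket protein of the repressive form of the complex, read 3.26, 3.96, 3.12 and 2.54 CPM in MEFs and 0.65, 1.02 and 0.708 CPM in mESCs. It was lower at 0.25 times the MEF level (log2 -2.0 ± 0.492 SE, adjusted p = 0.00639), at few counts. The number higher fell to 2 without MEF-B, mESC-A or mESC-C and to 1 without MEF-D or mESC-B. Foxm1 overlapped between the cell types, as given above.

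DNA replication genes, the comparison list, had 25 of 35 higher (71.4%) and 1 lower, with a median log2 fold change of 0.99. The highest was Orc1, of the origin recognition complex, at log2 2.08 (adjusted p = 0.00057), and the lowest was Rrm1, of ribonucleotide reductase, at -0.81 (adjusted p = 0.00647). The difference between this list and the mitosis genes was not tested.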

How the data were processed

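RNA-seq counts of 4 MEF and 3 mESC libraries were used. The authors made 3′-biased libraries with molecular identifiers, aligned reads to mm10 with STAR (2.4.2a in the submitters' processing notes), collapsed identifiers and ran featureCounts on exons with reads that mapped to 1 place. The counts per gene were deposited as whole numbers, not normalized. The annotation release and strand setting are not given in the sources used here, so overlapping genes on the other strand are uncertain. Levels of different genes were not compared with each other, and ratios of 2 genes were compared only between libraries. Column names give the cell type followed by a 1 in every library, then an unexplained letter (O or Y) and a last number. What the 1 stands for is not given. No source ties the last number to a sample, so libraries were grouped by cell type only. Per-sample columns left unused numbered 0.

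All genes that passed filterByExpr were fitted by edgeR's quasi-likelihood method (version 4.0.16, under limma 3.58.1 and R 4.3.3) on TMM-scaled counts of all 7 libraries, with cell type as the only term. Genes were called at an adjusted p (Benjamini-Hochberg) under 0.05. CPM values are on the TMM scale, and log2CPM used a prior count of 2. A log2 ratio is the difference in log2CPM of 2 genes within a library. Adding 0.5 counts to each gene in place of that prior count was an alternative. The code was tested on simulated data. With 200 of 16580 genes changed, edgeR recovered 14 at a log2 fold change of 1 and 134 at 2, with 1 and 8 false calls. With 8000 genes changed by log2 1 it recovered 4282, with 108 false calls. A gene that did not pass may therefore still differ. Coordinates of genes and their overlaps are from GENCODE M21 on GRCm38. Promoters are from RefSeq on GRCm38.p6. Tables used pandas 2.3.3 and SciPy 1.17.1 (Python 3.11.15).

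The 50 genes, the role groups and the other lists were chosen with earlier results of these data known, so no adjusted p over a list is given. Values in every library are given for the highest and lowest gene of each role group of 3 or more, for genes that did not pass and for genes of ratios that did not overlap. Of each other list the highest and lowest are named. Further genes named were chosen after their values were seen. Alternatives were DESeq2 1.42.0, its size factors in edgeR, no scaling, a filter of 1 count or of 10 counts in every library of a cell type, a test against a fold change of 2, promoter matches on 1 strand, and leaving out each library.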

Additional observations from a re-analysis of the deposited data

Results flagged for a closer look

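In 5 of 49 tested genes, 1 of the 4 MEF libraries stood far from the others, by Dixon's criterion. The nominal rate of the criterion is about 1 in 20, or 2.45 of 49. The share over all genes tested was not measured, and these genes varied together among MEF libraries. The count is therefore not read as an excess. Foxm1, for the late cell cycle transcription factor, read 26.4 CPM in MEF-B and 12.9 to 13.2 CPM in the other MEF libraries. Cenpf, for the kinetochore protein, read 260 CPM in MEF-A and 210 to 218 CPM in the others. Prc1, for the midzone bundler, read 159 CPM in MEF-A against 87.7 to 95.9 CPM, and Smc4, for the condensin ATPase, 1093 CPM in MEF-A against 861 to 900 CPM. Pttg1, for securin, read 66.6 CPM in MEF-D against 36.6 to 40.1 CPM. Cenpf, Prc1 and Pttg1 remained higher in mESCs in all refits that left out 1 library, and Foxm1 and Smc4 passed in none of them.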

How the results depend on the processing

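Of the 30 genes higher in mESCs, 25 kept that call in all refits except the test against a fold change of 2, which left 7. Cdc25a, Cdc25c, Cdca8, Ube2c and Kif23 lost it in at least 1 refit without a library, and Cdc25c, Ube2c and Kif23 also with a filter of 1 count. Leaving out each library gave 26 to 31 genes higher and a median log2 fold change of 0.74 to 0.86, with 0 lower throughout. The median was 1.06 without scaling. Over all genes, the fold test left 1714 higher and 2277 lower, no scaling gave 5180 higher and 3345 lower, and leaving out a library gave 3234 to 3619 higher and 3792 to 3916 lower. Of the 121 other mitosis genes, the fold test left 16 higher and 3 lower, no scaling gave 69 higher and 8 lower, and leaving out a library gave 37 to 46 higher and 10 to 14 lower. All 9 role group medians stayed above that of all genes in each setting, and 4 to 6 ratios did not overlap. On the strand of the gene alone TTTGAA was in 54.8% of the 42 windows, against 10.2% of all windows and 9.38% of those of the replication genes. CCAAT was in 50%, against 21.1% and 31.2%.

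Direction turned only in genes near 0, and the cause was not tested. Without scaling the median of all genes tested rose from 0.04 to 0.32. In that fit Cdc25b was 0.01, Foxm1 0.22, Plk4 0.16, Birc5 0.27 and Mis18a 0.28 on the log2 scale. With DESeq2's size factors Birc5 was 0.00443 and Mis18a 0.02, and with DESeq2 Mis18a was 0.0034. With the filter of 1 count Ccna2 was -1.9e-05 and Ncapg2 -0.02, and with that of 10 counts Ncapg2 was -0.00332. Without 1 library, Birc5 ran from -0.15 to 0.06 (0.06 without MEF-A, MEF-B or mESC-B, 0.01 without mESC-A) and Ccna2 from -0.07 to 0.17 (-0.06 without MEF-C, -0.05 without MEF-D, -0.07 without mESC-A). Foxm1 ran from -0.17 to 0.25 (0.25 without MEF-B, 0.08 without mESC-A) and Kif20a from -0.21 to 0.77 (-0.21 without MEF-B, -0.02 without MEF-D, -0.04 without mESC-B). Mis18a ran from -0.10 to 0.04 (0.02, 0.01, 0.03 and 0.04 without MEF-A, MEF-D, mESC-A and mESC-B) and Ncapg2 from -0.24 to 0.21 (-0.16, -0.08 and -0.24 without MEF-C, MEF-D and mESC-C). Kif4 was -0.16 and Ndc80 -0.13 without mESC-C, Numa1 was -0.01 without MEF-A, and the log2 ratio of Bub1 to Bub1b was 0.08 without MEF-A and 0.19 without MEF-B. No paired analysis was possible because no source ties the last number in a column's name to a sample. Counts near the floor kept Pkmyt1 out of the test.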
